A study of Mus musculus with 76 samples.

Results

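Glycolysis, the pentose phosphate pathway and the entry of pyruvate into the mitochondrion were followed through 38 genes in bulk RNA sequencing libraries from cells and tissues of the mouse. The 38 genes were taken by symbol from the whole thymus table and joined to the other tables by gene ID, and all 38 were found among 55487 gene IDs. They encode the glucose transporters Slc2a1 and Slc2a3, the hexokinases Hk1 and Hk2, the isomerase Gpi1, the phosphofructokinases Pfkl, Pfkm and Pfkp with the 4 Pfkfb enzymes that set their activator, and the lower glycolytic enzymes from aldolase (Aldoa, Aldoc) to pyruvate kinase (Pkm). They also encode lactate dehydrogenase (Ldha, Ldhb), the lactate carriers Slc16a1 and Slc16a3, pyruvate dehydrogenase with its kinases and phosphatase, and 4 enzymes of the pentose phosphate pathway (G6pdx, Pgd, Tkt, Taldo1).

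The mice labelled Sod1Mut carry a mutant human gene for superoxide dismutase 1 (SOD1-G93A) and are a model of amyotrophic lateral sclerosis, and they were compared with mice labelled WT, whose strain label also reads SOD1-G93A. In the usual line the transgene runs from the human SOD1 promoter and is active in all tissues, including the thymus. Cortical and medullary thymic epithelial cells (cTEC, mTEC), regulatory T cells (Treg) and CD4 cells were sorted by flow cytometry from digested thymus of both genotypes at d30 and d120. Inguinal lymph node (iLN) and whole thymus were taken at d120, unsorted. Cultures labelled as Treg cells in vitro were taken without activation (T0) or at T2 and T20 of activation. Their titles read Tregdiff, for Treg differentiation, and changes with activation were not told apart from changes with differentiation. The unit of T and the age of the animals were not given. There were 3 libraries in each of 26 groups, 76 in all, except for WT cTEC and WT CD4 cells of d30 with 2 each (replicates 2 and 3). The labels do not say that the libraries of a group came from separate animals, so p-values measure the spread between libraries.

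Glucose enters a cell through a transporter, is trapped by hexokinase and committed by phosphofructokinase, and the lower enzymes then harvest ATP and make pyruvate. Pyruvate is either reduced to lactate by lactate dehydrogenase and exported, or admitted to the mitochondrion by pyruvate dehydrogenase, which its kinases (Pdk1 to Pdk4) switch off. Activated T cells are known for raising glycolysis and lactate output as they grow, and thymic epithelial cells are less studied in this respect.

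The libraries of the sorted cells held 15135 to 36919936 counts, those of the cultures 171619 to 19699330 and those of iLN 63887 to 894958. Counts assigned to Sod1, as a check of the labels, were higher in every SOD1 library than in every WT library of the same set in 13 of 13 sets of tissue, day or culture time. The libraries SOD1 mTEC d30 replicate 1 (15135 counts) and SOD1 cTEC d120 replicate 3 (7627 genes detected) stood apart. Without the former, the counts of members called below were the same for mTEC against cTEC at d30 (0) and for mTEC between days (2). Without the latter, they were the same for mTEC against cTEC at d120 (4), and 6 in place of 5 for cTEC between days. Without all libraries of low depth, mTEC against cTEC had 7 calls at d30 (4 higher, 3 lower) and 6 at d120. Without either, 21 members in place of 20 were called between epithelial and T cells. Aire, which defines mTEC, was at 619 to 1080 CPM (counts relative to library size, scaled by TMM) in mTEC of d30, and Psmb11 of cTEC at 442 to 1470 CPM in cTEC of d30 and 10 to 332 CPM at d120. The T cell receptor gene Cd3e was at 149 to 259 CPM in cTEC of d30 and 6.68 to 39.0 CPM at d120. Foxp3, the factor that defines Treg cells, was at 33.5 to 70.0 CPM in sorted Treg cells of d30, and at 13.5 to 25.2 CPM in CD4 cells of that day. In the cultures Foxp3 was at 3.56 to 31.8 CPM at T0, below all sorted Treg libraries, and at 59.4 to 265 CPM at T2. Cultures and sorted cells were scaled separately, and the highest T0 value was close to the lowest of sorted Treg cells of d30 (33.5 CPM). That the T0 libraries lacked the defining marker at the level of a sorted Treg cell is uncertain to that extent. In bulk libraries, fewer cells of a type and less RNA per cell cannot be told apart.

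The step from T0 to T2 or T20 in the cultures moved the set most. At T2, transcripts of both hexokinases, Pfkp, 8 of 9 tested lower glycolytic enzymes, Ldha, both lactate carriers and 3 of the 4 pentose phosphate genes were above T0, while Ldhb and Pdk1 were below it. Of 36 members tested, 21 rose and 4 fell at T2, against 23.8% of all 11787 genes tested that rose and 34.3% that fell (58.1% in either direction). At T20, 19 rose and 6 fell, against 24.1% and 34.1% of all genes (edgeR's quasi-likelihood test, Benjamini-Hochberg adjusted over all genes). The median member changed by 1.06 on the log2 scale at T2 and 1.01 at T20, and the median of all genes by -0.24 and -0.25. T2 and T20 were each compared with the same T0 libraries, so their results are not independent. Between T20 and T2 no member passed (edgeR, 2 members at an unadjusted p under 0.05, 0 by DESeq2), and 0% of all genes did.

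**Figure D1:**
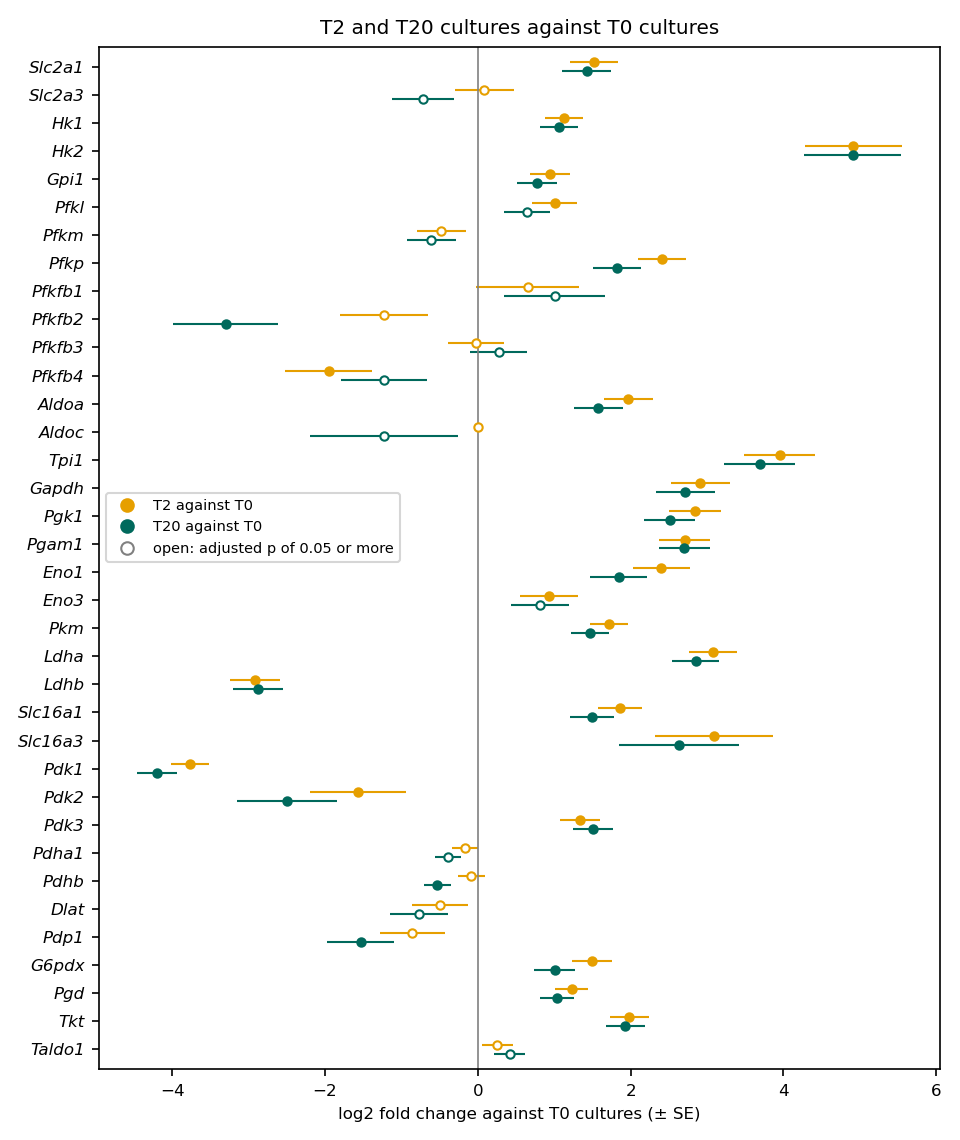
Log2 fold change of each tested member at T2 (orange) and T20 (green) against T0 cultures, both genotypes averaged, with the standard error as bars. The error was derived from the change and its test statistic and fails near a change of 0. For Aldoc the bar at T2 (0.0115, against 0.966 at T20) is therefore too short. Filled points passed an adjusted p of 0.05. Hk2 lies farthest to the right near 4.92 and Pdk1 farthest to the left at -3.77 and -4.19.

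Glucose uptake and phosphorylation came first in the pathway. Slc2a1, the GLUT1 transporter of activated lymphocytes, stood at 14.2 to 34.8 CPM at T0 (median 21.2), 42.0 to 130 CPM at T2 (median 54.8) and 34.1 to 93.4 CPM at T20 (median 67.1). Every T2 library lay above every T0 library, and at T20 the lowest library fell within the T0 range. Its log2 fold change was 1.51 ± 0.31 (SE) at T2 and 1.42 ± 0.32 at T20 (edgeR adjusted p = 0.00049 and 0.0009). Slc2a3, the GLUT3 transporter, had a change of 0.08 ± 0.38 at T2 and -0.72 ± 0.41 at T20 and did not pass. Hk2, the hexokinase tied to growth, was nearly silent at T0. Its 6 T0 libraries read 1.79, 1.75 and 1.83 CPM in SOD1 and 0, 8.02 and 0 CPM in WT. At T2 they read 23.3, 73.9 and 69.6 CPM in SOD1 and 89.8, 210 and 103 CPM in WT, and at T20 85.2, 103 and 20.3 CPM and 34.5, 212 and 76.6 CPM. The groups did not overlap, and the fitted change was 4.92 ± 0.63 at T2 and 4.91 ± 0.64 at T20 (edgeR adjusted p = 4.1e-06 and 5.1e-06). Hk1, the constitutive hexokinase, rose less, by 1.12 ± 0.25 and 1.06 ± 0.25 (edgeR adjusted p = 0.00086 and 0.0014).

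Of the phosphofructokinases Pfkp, the platelet form, rose from a median of 72.4 CPM at T0 (52.0 to 89.6) to 331 CPM at T2 (199 to 654) and 240 CPM at T20 (201 to 432), with no overlap. The change was 2.41 ± 0.32 and 1.82 ± 0.31 (edgeR adjusted p = 5e-06 and 8.6e-05). Pfkl, the liver form, passed at T2 alone (1.01 ± 0.30, edgeR adjusted p = 0.0075), and without WT T2 replicate 2 its adjusted p was 0.051. Pfkm, the muscle form, did not pass at either time. The Pfkfb enzymes make or break fructose 2,6-bisphosphate, the activator of phosphofructokinase, and none of the 4 rose. Pfkfb3, the member best known in proliferating cells, changed by -0.03 ± 0.36 and 0.27 ± 0.37. Pfkfb2 fell at T20 from 2.94 to 21.5 CPM at T0 to 0 to 1.96 CPM (-3.30 ± 0.69, edgeR adjusted p = 0.00051). Pfkfb4 fell at T2 (-1.95 ± 0.57, edgeR adjusted p = 0.0066), a call lost without WT T0 replicate 2 (-1.17, adjusted p = 0.14).

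The lower glycolytic enzymes rose together: 8 of 9 tested at T2 and 7 of 9 at T20, none falling. Tpi1, which interconverts the triose phosphates, was at 15.9 to 69.9 CPM at T0, 188 to 822 CPM at T2 and 170 to 650 CPM at T20, a change of 3.95 ± 0.47 and 3.69 ± 0.46 (edgeR adjusted p = 1.6e-06 and 3.6e-06). Pgk1, the first ATP-making step, was at 85.5 to 192 CPM at T0, 359 to 1486 CPM at T2 and 420 to 1037 CPM at T20. Pgam1, the mutase after it, was at 46.3 to 134, 196 to 804 and 318 to 641 CPM. For Tpi1, Pgk1 and Pgam1 the activated and unactivated groups did not overlap, and the T0 library nearest to the others was WT replicate 2 each time. Pgk1 and Pgam1 changed by 2.84 ± 0.34 and 2.71 ± 0.33 at T2 (edgeR adjusted p = 1.8e-06 and 2.4e-06), and Pkm, pyruvate kinase, by 1.71 ± 0.25 (edgeR adjusted p = 1.5e-05). Gapdh, Eno1 and Aldoa rose by 2.91 ± 0.39, 2.40 ± 0.37 and 1.97 ± 0.32 at T2 (edgeR adjusted p = 6.2e-06, 3.1e-05 and 4.6e-05). Gapdh and Eno1 have near-identical processed copies in the annotation, which took counts equal to 10.2% and 17.9% of theirs in the culture and iLN table, so their own levels are uncertain. Adding the copies changed no call among the members. Eno3, the muscle enolase, passed at T2 alone (0.93 ± 0.37, edgeR adjusted p = 0.04) and lost the call in 4 of 12 fits that left out 1 library, and Aldoc did not pass.

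Lactate dehydrogenase showed opposite changes in its 2 subunits. Ldha, the subunit that favours lactate formation, read 132, 170 and 159 CPM in the SOD1 T0 libraries and 114, 311 and 120 CPM in the WT ones. At T2 it read 1102, 1760 and 1582 CPM in SOD1 and 769, 2104 and 1190 CPM in WT, and at T20 1102, 1065 and 1533 CPM and 914, 1594 and 1084 CPM. Every activated library lay above every T0 library, an 8.42-fold rise at T2 and 7.21-fold at T20 (log2 3.07 ± 0.31 and 2.85 ± 0.31, edgeR adjusted p = 3.5e-07 and 8.6e-07). Ldhb, the subunit of oxidative tissues, read 97.5, 78.0 and 75.1 CPM in SOD1 and 71.2, 129 and 93.2 CPM in WT at T0. At T2 it read 8.47, 10.3 and 26.1 CPM and 16.8, 9.80 and 14.2 CPM, and at T20 6.63, 14 and 20.3 CPM and 18.5, 5.45 and 14.2 CPM. All activated libraries were below all T0 libraries (log2 -2.92 ± 0.32 and -2.88 ± 0.32, edgeR adjusted p = 8.1e-07 and 1.2e-06). The carriers Slc16a1 (MCT1) and Slc16a3 (MCT4), which export lactate with a proton, rose by 1.86 ± 0.29 and 3.09 ± 0.77 at T2 (edgeR adjusted p = 3.2e-05 and 0.0022). Slc16a3 was the more uneven, at 1.16 to 9.36 CPM at T0 and 5.15 to 96.8 CPM at T2, so that 1 SOD1 T2 library lay within the T0 range.

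**Figure D2:**
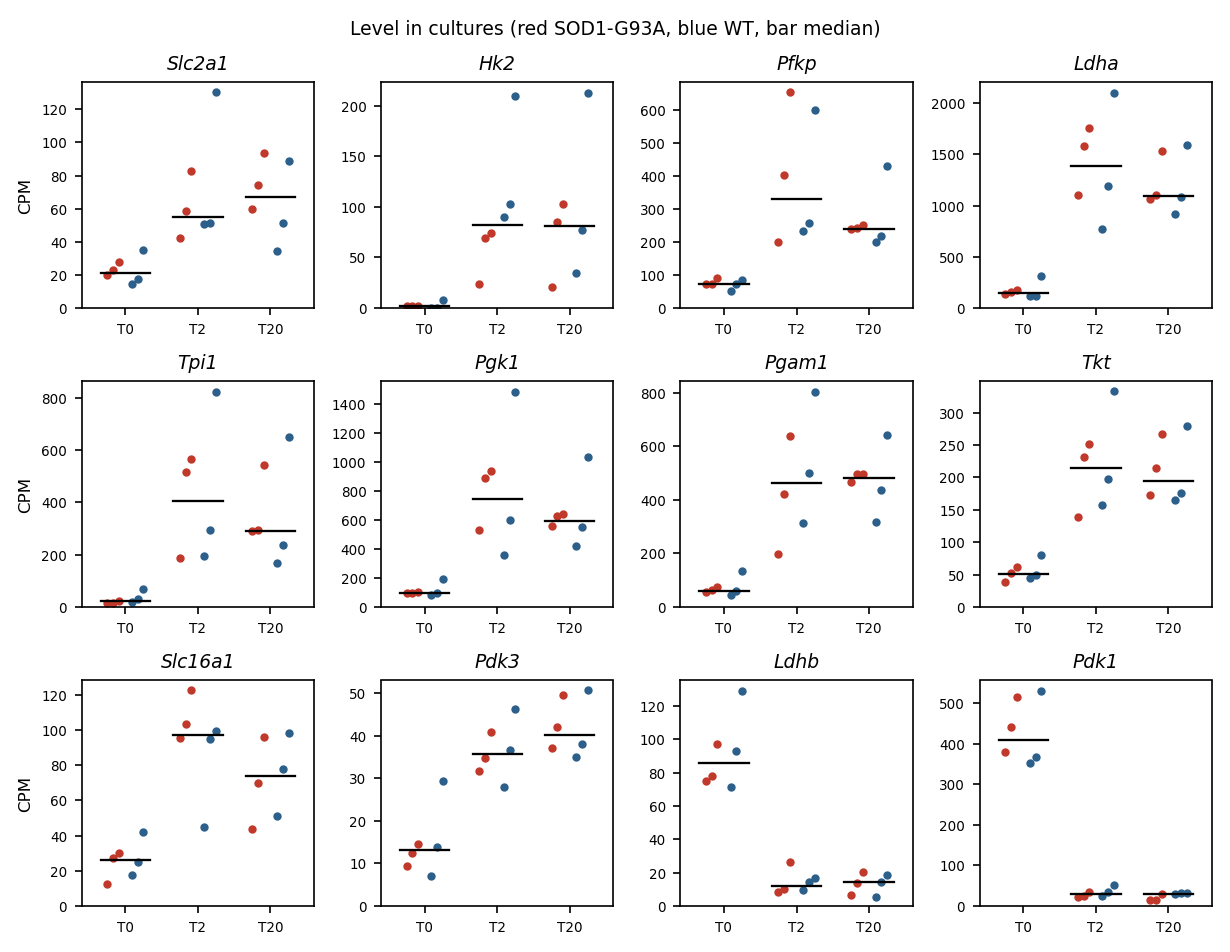
Level in CPM (linear axes from 0) of 12 members in every culture library at T0, T2 and T20, with SOD1-G93A in red, WT in blue and the median of the 6 libraries as a bar. Ldha rises from a median of 145 to 1386 CPM at T2, while Ldhb falls from 85.6 to 12.2 CPM and Pdk1 from 410 to 28.8 CPM.

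At the mitochondrial entry the kinases moved in opposite directions. Pdk1, which phosphorylates and inactivates pyruvate dehydrogenase, read 379, 516 and 441 CPM in SOD1 and 353, 530 and 368 CPM in WT at T0. At T2 it read 24.1, 33.5 and 21.7 CPM and 33.7, 52.1 and 24.2 CPM, and at T20 14, 14 and 30.5 CPM and 31.4, 32.7 and 28.9 CPM. No activated library came near the T0 range, and Pdk1 had the smallest p of all members at both times (log2 -3.77 ± 0.25 and -4.19 ± 0.26, edgeR adjusted p = 1.1e-08 and 8e-09). Pdk3 rose from a median of 13.2 CPM at T0 (7.12 to 29.4) to 35.8 CPM at T2 (28.1 to 46.2) and 40.1 CPM at T20 (35.0 to 50.8), by 1.34 ± 0.26 and 1.51 ± 0.27 (edgeR adjusted p = 0.00032 and 0.00012). Pdk2 fell at both times (-1.57 ± 0.63 and -2.50 ± 0.65, edgeR adjusted p = 0.04 and 0.0033), but at T2 the call was lost in 10 of 12 fits without 1 library and with DESeq2 (adjusted p = 0.099). Pdk4 was at 0 to 1.84 CPM in all cultures and was not tested. The pyruvate dehydrogenase subunits moved less: Pdha1 and Dlat did not pass, and Pdhb fell by 0.53 on the log2 scale at T20 (SE 0.18, edgeR adjusted p = 0.017). Without the low-depth libraries, which leaves 1 SOD1 library at T20, the change of Pdhb was -0.04. All T20 libraries lay below all T0 libraries for Pdhb (44.0 to 72.6 against 74.8 to 104 CPM). The same held for Pdha1 (64.3 to 94.4 against 99.6 to 118 CPM, edgeR adjusted p = 0.056). Pdp1, the phosphatase that reactivates the complex, fell at T20 (-1.53 ± 0.44, edgeR adjusted p = 0.0062), a call lost without a filter on low counts (-1.07, adjusted p = 0.12).

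In the pentose phosphate pathway, which makes NADPH and ribose, Tkt rose from 39.0 to 80.2 CPM at T0 to 139 to 333 CPM at T2 and 165 to 280 CPM at T20, with no overlap (1.98 ± 0.26 and 1.93 ± 0.26, edgeR adjusted p = 4.2e-06 and 6.5e-06). The 2 NADPH-making dehydrogenases rose as well, G6pdx by 1.49 ± 0.27 and Pgd by 1.23 ± 0.22 at T2 (edgeR adjusted p = 0.00012 and 0.00011). Taldo1 did not pass (0.26 ± 0.21 at T2). Over all 38 members, the share of a library's counts was 0.161% to 0.350% at T0, 0.563% to 1.58% at T2 and 0.638% to 1.19% at T20.

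The promoters of 4 members that rose and of the 2 that fell most clearly are shown because members that moved together invite a look at their starts. The 4 are examples and no ranking: Tpi1, with a smaller edgeR adjusted p at T2 than Pgk1, Pgam1 and Hk2, is not shown. The windows hold the 250 bases before the annotated start (RefSeq, GRCm38.p6), written in the direction of the gene, 5′ to 3′. They lie at chr7:46845554-46845803 (Ldha, plus strand), chr6:82774455-82774704 (Hk2, minus strand), chrX:106186850-106187099 (Pgk1, plus strand), chr19:41911621-41911870 (Pgam1, plus strand), chr6:142507958-142508207 (Ldhb, minus strand) and chr2:71872974-71873223 (Pdk1, plus strand). Capitals mark each match to ACGTG on either strand, the core that hypoxia-inducible factors bind and that overlaps the E-box CACGTG bound by MYC.
Ldha: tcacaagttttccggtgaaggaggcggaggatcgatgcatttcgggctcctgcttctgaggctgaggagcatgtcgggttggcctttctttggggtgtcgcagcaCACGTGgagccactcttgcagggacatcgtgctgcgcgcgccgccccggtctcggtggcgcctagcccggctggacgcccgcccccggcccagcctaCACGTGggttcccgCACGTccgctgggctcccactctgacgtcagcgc
Hk2: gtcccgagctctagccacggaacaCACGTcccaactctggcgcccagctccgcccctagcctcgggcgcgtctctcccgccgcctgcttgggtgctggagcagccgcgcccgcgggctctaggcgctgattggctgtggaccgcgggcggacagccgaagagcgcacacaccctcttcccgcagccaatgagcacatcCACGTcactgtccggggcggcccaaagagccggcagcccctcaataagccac
Pgk1: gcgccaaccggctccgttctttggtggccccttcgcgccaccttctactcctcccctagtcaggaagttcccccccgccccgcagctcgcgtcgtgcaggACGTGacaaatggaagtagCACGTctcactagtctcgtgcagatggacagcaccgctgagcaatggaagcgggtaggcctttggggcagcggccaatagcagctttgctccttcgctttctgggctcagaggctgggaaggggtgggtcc
Pgam1: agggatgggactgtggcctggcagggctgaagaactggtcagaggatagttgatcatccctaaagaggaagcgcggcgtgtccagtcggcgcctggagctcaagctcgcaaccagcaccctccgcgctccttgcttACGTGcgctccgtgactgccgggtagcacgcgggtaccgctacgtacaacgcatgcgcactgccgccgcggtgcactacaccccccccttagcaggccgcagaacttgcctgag
Ldhb: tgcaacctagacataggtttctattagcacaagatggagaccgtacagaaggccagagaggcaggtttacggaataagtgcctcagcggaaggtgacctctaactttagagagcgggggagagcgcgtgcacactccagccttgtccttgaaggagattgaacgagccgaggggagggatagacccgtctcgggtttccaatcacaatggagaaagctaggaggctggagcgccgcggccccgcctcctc
Pdk1: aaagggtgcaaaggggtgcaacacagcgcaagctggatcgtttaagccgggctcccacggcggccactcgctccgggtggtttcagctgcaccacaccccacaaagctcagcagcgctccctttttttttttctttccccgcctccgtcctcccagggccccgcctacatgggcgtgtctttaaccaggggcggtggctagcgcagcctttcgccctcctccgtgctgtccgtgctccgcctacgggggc
The Ldha window held 5 matches, Hk2 and Pgk1 2 each, Pgam1 1, and Ldhb and Pdk1 0. In Ldha each CACGTG stretch counts as 2 matches, 1 per strand, so it has fewer separate stretches than matches. Matched by symbol, 36 of the 38 members had an entry, and 15 of them (41.7%) had ACGTG in at least 1 window, against 18.5% of 27025 genes. Counted by window, 19 of 56 member windows (33.9%) held it, against 16.6% of all 32851 windows. Members had more windows per gene, which raises the share with at least 1 match. The longer CACGTG was in 6 members (16.7%) and in 6.86% of genes. Among members with an entry, ACGTG was present in 10 of the 19 that rose at T20, 3 of the 5 that fell and 2 of the 10 that did not pass. The contrast between risers and fallers in the windows shown was thus not that of the whole set. A match describes these letters and no binding was measured.

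Genes around the set were counted from lists of related genes. Of 17 TCA cycle genes, 10 rose and 0 fell at T2, and 10 rose and 1 fell at T20, with Idh3a, a subunit of isocitrate dehydrogenase, at 1.87 ± 0.26 and 1.62 ± 0.26 (edgeR adjusted p = 7.9e-06 and 4e-05). Of 26 other genes of glucose handling tested, 8 rose and 5 fell at T2. Slc2a6, a further sugar transporter, rose by 4.28 ± 0.56 and Prps1, which makes the ribose precursor of nucleotides, by 2.08 ± 0.30, while Emb, a partner of the lactate carriers, fell by 3.95 on the log2 scale (SE 0.24). Of 13 regulators tested, 5 rose and 4 fell at T2. Myc, a transcription factor of growing cells, and Egln3, an oxygen-dependent prolyl hydroxylase, rose by 1.63 ± 0.22 and 3.15 ± 0.57, and Txnip, the inhibitor of glucose uptake, fell by 4.27 on the log2 scale (SE 0.46).

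Other markers moved from T0 to T2 and T20 as well. All 7 Treg markers, all 6 of T cell activation and all 5 of proliferation rose at T2 and at T20, the proliferation genes from a summed 49.9 to 240 CPM at T0 to 1542 to 2960 CPM at T2. At T2, 4 of 5 tested double-positive thymocyte markers fell (summed 155 to 1131 CPM at T0 and 8.69 to 146 CPM at T2), as did 2 of 2 endothelial and 3 of 3 skeletal muscle markers (14.5 to 135 and 1.08 to 16.8 CPM for muscle). The fibroblast gene Col1a1 fell from 55.2 to 146 CPM to 0 to 39.1 CPM. WT T0 replicate 2 had the highest Rag1 (462 CPM), Il2ra (262 CPM) and Mki67 (95.3 CPM) of the T0 libraries, and without it 20 members rose and 2 fell at T2. The part of these cells in the change of the members was not tested.

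Across the sorted cells the order of the levels differed by cell type. Between genes, levels were compared per kilobase of exon. The length was that of all annotated exons of a gene joined, such as 4133 bases for Gapdh and 1570 for Ldhb. It can exceed the length of the transcript in use, and the order depends on it. In CPM, Gapdh had a higher median than Ldhb in cTEC of d30 (992 against 561). In cTEC of d30 Ldhb led with a median of 357 CPM per kilobase, before Aldoa (269) and Gapdh (240). In mTEC of d30 Gapdh (192), Ldhb (189) and Aldoa (159) led. In Treg and CD4 cells of d30 Ldha led (278 and 307), before Gapdh (254 and 252). In the T0 cultures no member passed 68.0 (Pkm), and at T2 Ldha led at 419, before Pgk1 (332) and Eno1 (269). In whole thymus, given as TPM and so not on the scale of the other values, Gapdh led at 1633, and Ldhb (607) and Ldha (580) lay next to each other. In iLN Aldoa (50.4) and Gapdh (40.0 CPM per kilobase) were first.

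**Figure D3:**
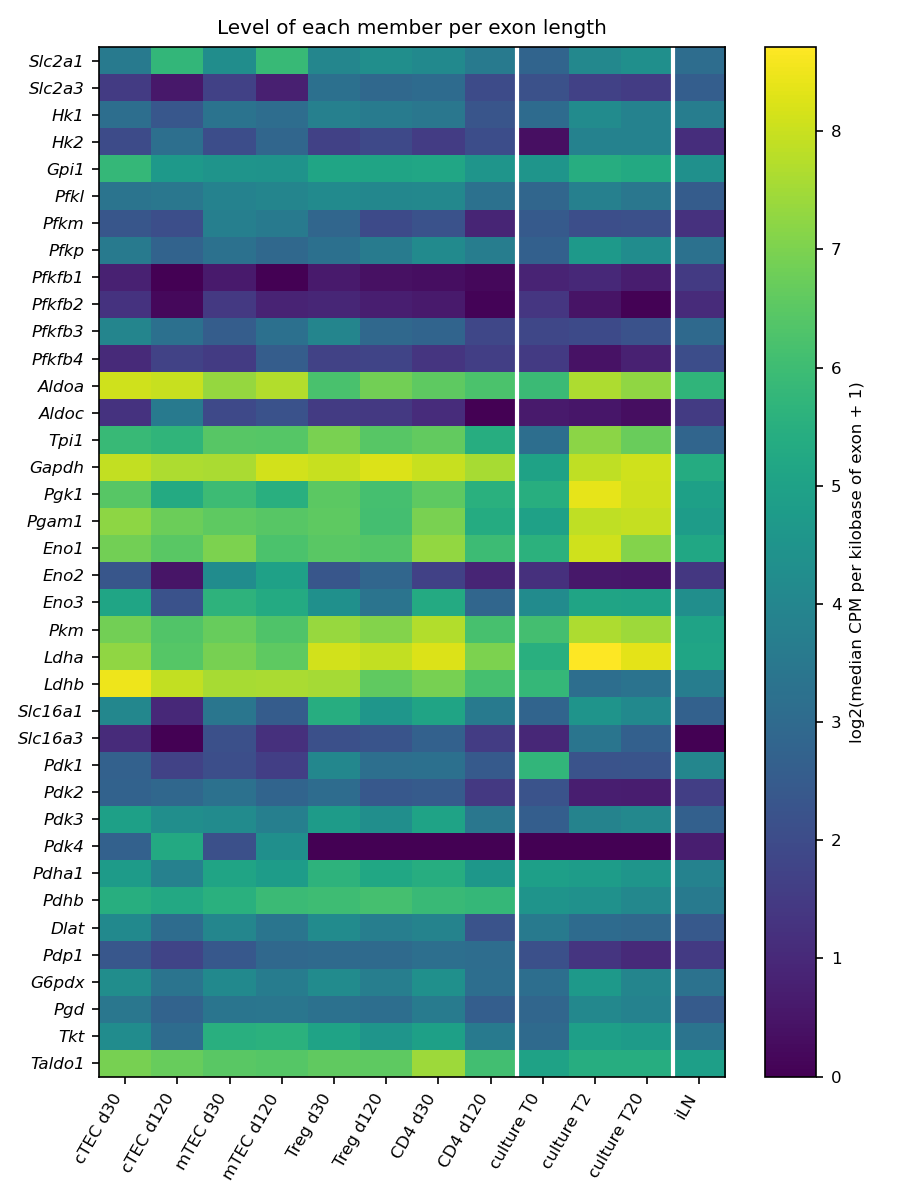
Median level of each member per kilobase of exon, as log2(CPM per kilobase + 1), in the sorted cells by day, the cultures and iLN, separated by white lines. Pdk4 is bright in the epithelial columns alone among sorted cells, and the lower glycolytic rows from Tpi1 to Ldha brighten from T0 to T2.

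Epithelial and T cells were compared over both days. Epithelial cells held more Pdk4, Aldoa, Aldoc, Ldhb and Slc2a1, and T cells more Ldha, Pkm, Slc2a3, Pdk1 and both lactate carriers. Of 38 members, 10 were higher in epithelial cells and 10 lower, against 21.9% and 23.8% of all 21733 genes tested (45.7% in either direction), so the share called (52.6%) was near the background. The choice of scaling moved the median of all genes here, from 0.22 with TMM to 0.36 with median-of-ratios. With the latter 12 members were higher and 8 lower, and Pdha1 and Pdhb were not called (edgeR adjusted p = 0.054 and 0.13).

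Pdk4, the starvation-induced kinase of pyruvate dehydrogenase, was the member whose epithelial and T cell libraries did not overlap. It was at 9.41 to 323 CPM in all epithelial libraries, at 0 to 0.775 CPM in Treg and CD4 libraries of d30 and at 0 in all of d120 (edgeR adjusted p = 1.8e-16). Ldha had medians of 508 and 277 CPM in cTEC and 399 and 310 CPM in mTEC (d30 and d120), against 919 and 802 CPM in Treg and 1015 and 423 CPM in CD4 cells, a difference of -1.09 ± 0.15 (edgeR adjusted p = 3.1e-08). Ldhb differed the other way (0.98 ± 0.20, edgeR adjusted p = 8e-05). Slc16a1 and Slc16a3 were lower in epithelial cells by 2.15 and 2.34 on the log2 scale (SE 0.29 and 0.37, edgeR adjusted p = 4.5e-08 and 1.2e-06). Slc16a1 had a median of 186 CPM in Treg and 145 CPM in CD4 cells of d30, against 68.3 CPM in cTEC and 42.6 CPM in mTEC.

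Of the glucose transporters Slc2a3 was lower in epithelial cells (-2.06 ± 0.35, edgeR adjusted p = 3.9e-06) and Slc2a1 higher (0.77 ± 0.16, edgeR adjusted p = 6e-05). Aldoc, the brain aldolase, and Aldoa, the muscle one, were higher by 2.23 ± 0.39 and 1.23 ± 0.25 (edgeR adjusted p = 6.3e-06 and 7.6e-05). Hk2, Pfkm and Pgam1 were also higher and Pdk1, Pkm, Pfkp and Pdp1 lower, and Pgam1 lost its call without a filter on low counts (0.29, adjusted p = 0.45). Eno2 passed at 1.30 ± 0.34 but not without WT cTEC d120 replicate 3 (0.48), and Pfkfb3 passed at 0.90 ± 0.29 but not without SOD1 cTEC d120 replicate 3 (0.52, adjusted p = 0.055), a library in which it read 1226 CPM against 46.8 to 73.3 CPM in the other 5 of cTEC d120. Pdhb was called at an adjusted p of 0.045 and lost the call with DESeq2 (adjusted p = 0.073). Without the low-depth libraries 10 members were higher and 11 lower.

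**Figure D4:**
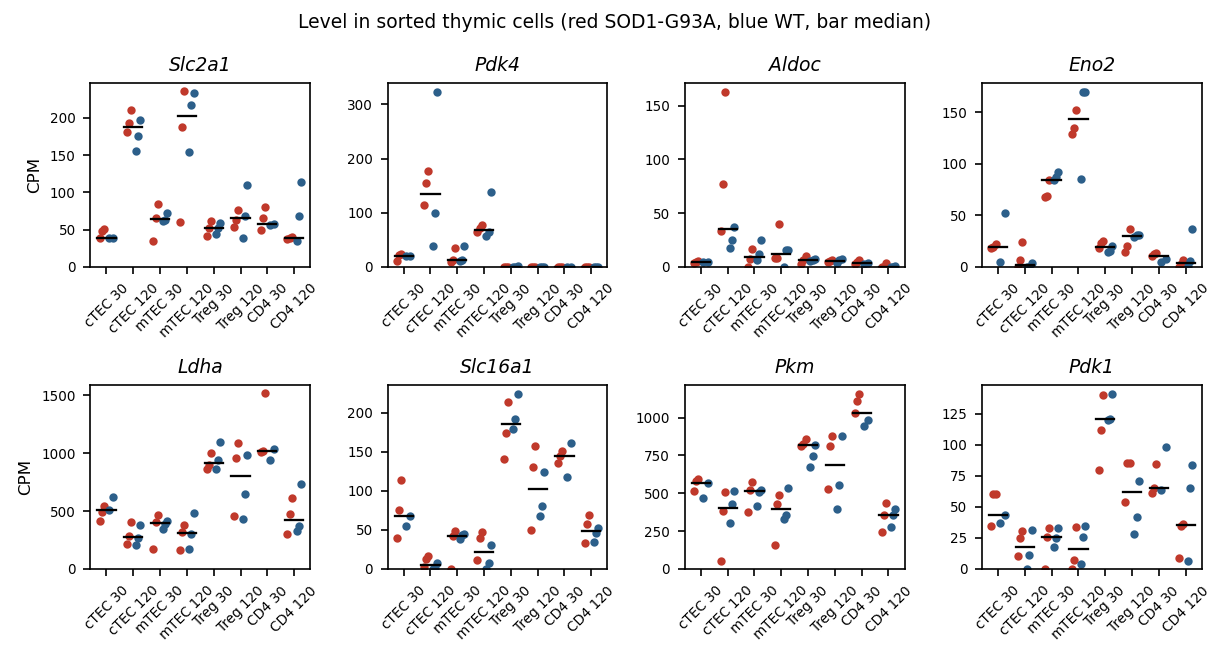
Level in CPM (linear axes from 0) of 8 members in every sorted library by cell type and day, with SOD1-G93A in red, WT in blue and the median as a bar. Pdk4 is at or near 0 in all Treg and CD4 libraries, and Slc2a1 and Pdk4 are higher in epithelial cells of d120 than of d30.

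Within the epithelium mTEC and cTEC were compared. At d30 no member passed (edgeR, 3 of 38 at an unadjusted p under 0.05), against 15.9% of 20223 genes higher in mTEC and 3.10% lower (19% in either direction). This count depended on the tool: DESeq2 called 4 and limma voom with quality weights 20, and the fit without low-depth libraries 7. Another scaling moved the median of all genes by 0.16 at d30. At d120, 4 members were higher in mTEC and 0 lower, against 21% and 3.28% of all genes (24.3% in either direction). The difference between the days itself was called for 0 of 38 (edgeR, 5 at an unadjusted p under 0.05, 3 by DESeq2), against 0.633% of all genes higher and 0.104% lower (0.737% in either direction), and scaling moved that median by -0.22.

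Eno2, the neuronal enolase, read 135, 152 and 128 CPM in SOD1 mTEC of d120 and 169, 170 and 84.7 CPM in WT mTEC, and 24.4, 6.18 and 0 CPM and 0, 0 and 3.73 CPM in cTEC. The groups did not overlap (5.23 ± 0.81, edgeR adjusted p = 7.6e-05). Eno3 was at 16.2 to 95.1 CPM in mTEC and 0 to 13.3 CPM in cTEC (3.57 ± 0.73, edgeR adjusted p = 0.0011). Tkt was at 254 to 528 CPM in mTEC and 0 to 114 CPM in cTEC (2.81 ± 0.59, edgeR adjusted p = 0.0014). Slc16a3 was low in both, at 2.12 to 25.5 and 0 to 2.80 CPM, with 0 counts in all 3 SOD1 cTEC libraries (edgeR adjusted p = 0.0013). All 4 calls held in each of the 12 fits without 1 library and in the other 9 settings, SOD1 cTEC d120 replicate 3 included.

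Of 33 other genes of glucose handling, 5 were higher in mTEC of d120 and 2 lower. Hkdc1, a hexokinase-like gene, was at 0 to 46.3 CPM (median 5.55) in mTEC and at 0 in all 6 cTEC libraries, and Pklr, the liver pyruvate kinase, was at 0 to 10.2 CPM (median 2.58) and likewise at 0 in all 6. Slc2a6 had a median of 54.2 CPM in mTEC (0.941 to 103) and 0 in cTEC (0 to 7.65). Markers of other cells were also present in mTEC: 3 of 5 tested fibroblast markers (1 was lower), 3 of 4 skeletal muscle and 2 of 2 adipocyte markers were higher in mTEC of d120, with adipocyte genes at a summed 445 to 1223 CPM, nearly all of it Fabp4, against 0 to 113 CPM in cTEC. The summed fibroblast markers lay the other way, at 71.4 to 252 CPM in mTEC and 159 to 521 CPM in cTEC. Of the 6 myeloid and dendritic cell markers 3 were higher in mTEC and 0 lower (99.0 to 1083 and 0.668 to 118 CPM), and of 3 erythroid markers 2 were higher (9.47 to 64.9 and 0 to 3.02 CPM). Their part in the 4 calls was not tested.

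Treg and CD4 cells were compared at each day. At d30 Treg cells were lower than CD4 cells for 2 of 37 members and higher for 0, against 2.50% and 2.17% of 15725 genes (4.67% in either direction). At d120 they were higher for 9 and lower for 0, against 10.9% and 6.72% (17.6% in either direction). The median member differed by 0.01 at d30 and 0.42 at d120, that of all genes by 0.01 and 0.14. At d30 Eno1 read 1409, 845 and 790 CPM in SOD1 CD4 cells and 882 and 689 CPM in WT, against 459 to 498 CPM in the 6 Treg libraries (-0.88 ± 0.19, edgeR adjusted p = 0.0055). Pfkp read 233, 260 and 204 CPM and 226 and 209 CPM in CD4 cells, against 94.5 to 134 CPM in Treg (-1.01 ± 0.25, edgeR adjusted p = 0.018). The groups did not overlap for either gene, yet without WT CD4 d30 replicate 2 no member was called, and limma voom called 17.

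At d120 Tpi1 was at 156 to 382 CPM in Treg and 51.4 to 144 CPM in CD4 cells (0.99 ± 0.19, edgeR adjusted p = 0.00087). Hk1 was at 75.4 to 144 and 7.98 to 74.0 CPM (1.27 ± 0.36, edgeR adjusted p = 0.019), and Pfkm at 7.76 to 15.8 and 0 to 4.87 CPM (1.62 ± 0.43, edgeR adjusted p = 0.012). These 3 and Aldoc (3.07 to 7.02 and 0 to 2.99 CPM) did not overlap between the cells. Tkt, Dlat, Pkm, Slc16a1 and Eno2 were higher with overlapping groups, and Eno2, Slc16a1 and Pfkm lost their calls in some fits. Of 17 TCA cycle genes 4 were higher, and so were 3 of 5 proliferation markers.

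The change of this difference between the days was called for Pkm alone among 37 members (1.05 ± 0.24, edgeR adjusted p = 0.041), against 1.03% of all genes. At d30 Pkm read 828, 812 and 862 CPM in SOD1 Treg and 744, 821 and 676 CPM in WT Treg, below all CD4 libraries (1159, 1030 and 1109 CPM, and 944 and 981 CPM). At d120 Treg cells read 815, 879 and 530 CPM and 879, 554 and 395 CPM, and CD4 cells 436, 245 and 354 CPM and 359, 395 and 280 CPM. Treg libraries were thus mostly the higher ones at d120, with a small overlap. The call was lost with a replicate block (adjusted p = 0.11) and with median-of-ratios scaling (adjusted p = 0.054).

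Libraries of d120 were compared with those of d30 within each cell type. The labels name no sequencing run, and age cannot be told apart from how the libraries of each day were made. In cTEC 3 of 38 members rose and 2 fell, against 1.61% and 3.02% of 14620 genes (4.63% in either direction). In mTEC 2 rose and 0 fell, against 2.09% and 1.06% of 18919 genes (3.16% in either direction). In Treg cells 2 of 37 rose and 11 fell, against 16.1% and 13.8% of 14824 genes (29.9% in either direction). In CD4 cells 0 of 36 rose and 11 fell, against 4.66% and 5.92% of 12479 genes (10.6% in either direction). The differences between these 4 changes were not tested, apart from those of mTEC with cTEC and of Treg with CD4 cells above.

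In both epithelial types Slc2a1 and Pdk4 were the calls that recurred. Slc2a1 read 50.8, 48.5 and 38.9 CPM in SOD1 and 39.1 and 38.6 CPM in WT cTEC of d30, and 182, 194 and 210 CPM and 176, 197 and 156 CPM at d120. No library of one day reached the range of the other (2.38 ± 0.41, edgeR adjusted p = 0.0078). In mTEC it went from 34.4 to 84.1 CPM to 59.9 to 237 CPM, with overlap (1.42 ± 0.30, edgeR adjusted p = 0.02). Pdk4 read 21.4, 11.4 and 24.3 CPM and 19.3 and 19.3 CPM in cTEC of d30, and 178, 154 and 115 CPM and 99.7, 38.3 and 323 CPM at d120 (3.20 ± 0.62, edgeR adjusted p = 0.015). In mTEC it rose from 9.41 to 38.2 CPM to 57.6 to 138 CPM (2.38 ± 0.43, edgeR adjusted p = 0.0079). The days did not overlap for Pdk4 in either type.

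Aldoc rose in cTEC from 3.5 to 5.5 CPM to 17.3 to 163 CPM (3.72 ± 0.73, edgeR adjusted p = 0.015). Slc16a1 read 39.6, 114 and 76.0 CPM and 55.2 and 68.3 CPM in cTEC of d30, and 16.1, 12.4 and 2 CPM and 1.81, 0 and 7 CPM at d120, without overlap (-3.41 ± 0.84, edgeR adjusted p = 0.036). Eno3 fell too (-3.61 ± 0.95, edgeR adjusted p = 0.048), though 1 WT library of d30 was at 9.98 CPM, within the d120 range. In cTEC the summed double-positive thymocyte markers went from 506 to 997 CPM at d30 to 6.68 to 179 CPM at d120 (2 of 6 fell) and the proliferation markers from 451 to 825 CPM to 5.34 to 193 CPM (1 of 5 fell), the myeloid and dendritic cell markers went from 76.6 to 646 CPM to 0.668 to 118 CPM (2 of 6 fell), and the part of these cells was not tested. The markers of the epithelial types themselves moved as well. The summed mTEC markers went from a median of 2646 to 5022 CPM in mTEC and from 1095 to 3093 CPM in cTEC (3 of 7 rose in each), the cTEC markers from 18142 to 6120 CPM in cTEC (1 of 7 fell), and their part was likewise not tested. The cTEC calls were fragile: without either WT cTEC library of d30, which leaves 1 in its group, assumed to vary like the others, none of the 5 was called. In mTEC no member was called without SOD1 d30 replicate 2 or 3.

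In Treg cells the members that fell from d30 to d120 spanned the pathway. Pdk1 fell from 79.7 to 141 CPM to 28.1 to 85.5 CPM (-1.05 ± 0.19, edgeR adjusted p = 0.0014), Pfkfb3 from 70.0 to 128 CPM to 32.8 to 62.6 CPM (-1.05 ± 0.20, edgeR adjusted p = 0.0016) and Ldhb from 205 to 310 CPM to 93.9 to 233 CPM (-0.85 ± 0.16, edgeR adjusted p = 0.002). The days separated for Pfkfb3 and overlapped for Pdk1 and Ldhb. Tkt, Slc16a1, Pfkm, Pgam1, Pdk3, Tpi1, Pdk2 and Pdha1 fell by 0.38 to 1.04 on the log2 scale. Aldoa and Pfkp rose by 0.55 ± 0.12 and 0.51 ± 0.11 (edgeR adjusted p = 0.005 and 0.0053). Of 17 TCA cycle genes 6 fell and 1 rose. Of the 13 member calls, 8 held in every fit.

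In CD4 cells the calls lay mainly in lower glycolysis, and all were falls. Pkm went from the d30 values above to 245 to 436 CPM (-1.30 ± 0.22, edgeR adjusted p = 0.0053), Eno3 from 47.9 to 94.0 CPM to 6.62 to 20.02 CPM (-2.21 ± 0.37, edgeR adjusted p = 0.0045) and Ldha from 942 to 1518 CPM to 299 to 729 CPM (-0.94 ± 0.26, edgeR adjusted p = 0.037). No library overlapped between the days for these 3. Pgam1, Eno1, Tkt, Slc16a1, Tpi1, Dlat, Taldo1 and Pgk1 also fell, by 0.86 to 1.72 on the log2 scale. Pkm and Eno3 were the calls that held in every fit. Without WT CD4 d30 replicate 2 or 3, which leaves 1 library in that group, 2 and 4 members were called. The summed proliferation markers fell beside them, from 969 to 1162 CPM to 281 to 407 CPM in CD4 cells (4 of 5 called) and from 840 to 1210 CPM to 501 to 781 CPM in Treg cells (4 of 5 called). The summed double-positive thymocyte markers went from 1637 to 2333 CPM to 568 to 1073 CPM in Treg cells (3 of 6 fell) and from 680 to 1376 CPM to 305 to 683 CPM in CD4 cells (2 of 6 fell), with a small overlap in CD4 cells. The part of both lists in these falls was not tested.

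Isozyme choice was read as the share of each gene in its family per exon length. The shares depend on the joined exon lengths, such as 3310 bases for Ldha and 1570 for Ldhb. Ldhb made up a median of 70.7% of lactate dehydrogenase in cTEC of d30 and 63.7% in mTEC, 38.4% in Treg and 28.3% in CD4 cells. In the cultures it went from 53.4% at T0 (46.7% to 62.1%) to 2.03% at T2 (0.972% to 4.41%) and 2.70% at T20. Among the pyruvate dehydrogenase kinases Pdk1 went from 86.6% at T0 to 16.9% at T2, and Pdk3 from 7.75% to 75.7%. In the epithelium Pdk4 went from 12.4% at d30 to 60.9% at d120 in cTEC and from 10.1% to 53.1% in mTEC. Hk2 made up 3.63% of hexokinase at T0 and 48.4% at T2, and Pfkp 34% and 63.8% of phosphofructokinase. Slc2a1 made up 86.5% of the glucose transporters in cTEC of d30 and 98.9% at d120, and 65.5% in Treg cells of d30.

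The ratio of 2 isozymes within a library was tested in 14 pairs and 10 comparisons, and 55 of the 140 tests passed (exact two-sided permutation, Benjamini-Hochberg adjusted over all 140). In 2 of these, Pdk4 against Pdk2 in T cells, Pdk4 was at or near 0 and the ratio has no meaning. Ldhb against Ldha fell by 5.78 on the log2 scale at T2 and by 5.74 at T20 (exact permutation p = 0.00216, the smallest that 6 against 6 libraries allow, adjusted p = 0.0144). At the same p, Hk2 rose against Hk1 by 4.16 at T2, Pfkp against Pfkl by 1.37, and Slc2a3 fell against Slc2a1 by 1.86. In mTEC Eno2 gained on Eno1 by 1.34 from d30 to d120 and in the same cells exceeded the cTEC ratio of d120 by 6.14 (both exact permutation p = 0.00216, adjusted p = 0.0144). In Treg cells of d30 Pfkp against Pfkl was lower than in CD4 cells by 1.14 and Ldhb against Ldha higher by 0.59 (exact permutation p = 0.00216 and 0.00433, adjusted p = 0.0144 and 0.0189).

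**Figure D5:**
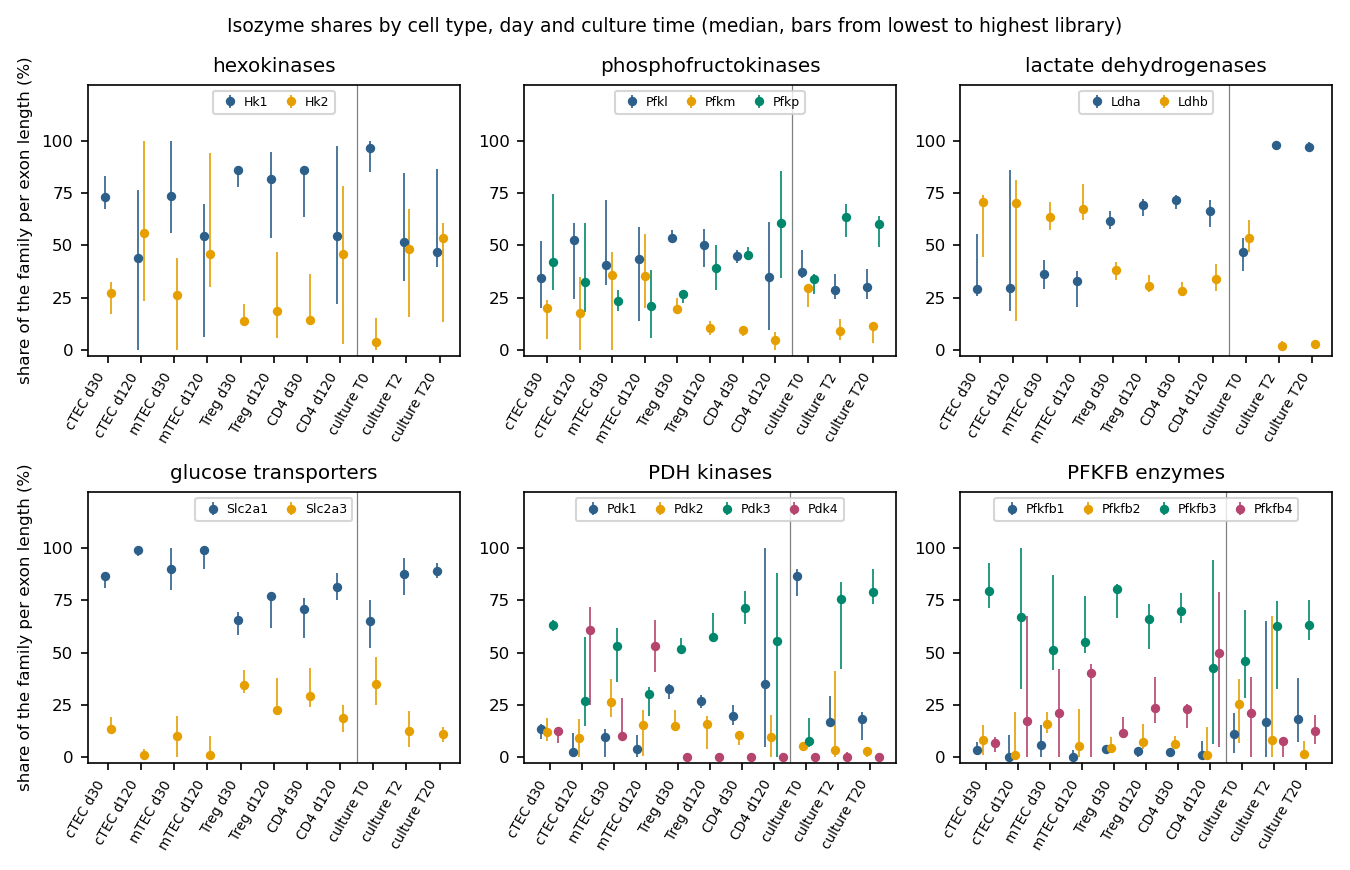
Share of each isozyme in its family per exon length, in percent, by cell type, day and culture time, as the median with bars from the lowest to the highest library. Ldhb falls to 2.03% at T2 and the shares of Pdk1 and Pdk3 exchange between T0 and T2.

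No member passed the test between genotypes. In each of the 13 sets of tissue, day or time, 0 of the 19 to 38 members tested were called (edgeR, or limma for whole thymus), with 0 to 4 members at an unadjusted p under 0.05. The share of all genes called was small as well, for either direction 0.00684% in both sets of cTEC, 0.00529% in both of mTEC, 0.0135% in both of Treg and 0.00801% in both of CD4 cells. In the cultures it was 0.0679% at T0, 0.0933% at T2 and 0.0933% at T20, in iLN 0.0574% of 5226 genes, and in whole thymus 0.0831%. No difference between genotypes in the response to activation was called for any member at T2 or T20 (edgeR interaction, 0 at an unadjusted p under 0.05, 0 by DESeq2), and 0% of all genes passed. The response of a member without a call may still differ between genotypes. With DESeq2 1 member was called in the 12 sets with counts.

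That member was Hk2 in Treg cells of d120. It read 8.15, 5.88 and 10.8 CPM in SOD1 and 22.1, 25.6 and 50.8 CPM in WT, and the genotypes did not overlap. Its change was -2.14 ± 0.44 (edgeR adjusted p = 0.44), while DESeq2 and edgeR without a filter on low counts gave adjusted p of 0.00242 and 0.000235. The next smallest in Treg cells of d120 were Pfkl (-0.51 ± 0.16) and Tpi1 (0.42 ± 0.17), neither called. In cTEC of d120 Pfkfb3 had a fitted difference of 3.04 ± 1.11 (edgeR adjusted p = 0.49), which rests on 1226 CPM in SOD1 replicate 3. In cultures at T2 G6pdx read 86.0, 90.7 and 148 CPM in SOD1 and 28.1, 65.5 and 40.8 CPM in WT, apart without overlap but not called (1.13 ± 0.36, edgeR adjusted p = 0.34).

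In whole thymus, measured in TPM, 36 members were tested and their log2 differences ran from -0.50 to 0.35. Ldha read 549, 559 and 600 TPM in SOD1 and 573, 605 and 587 TPM in WT, Ldhb 678, 599 and 640 TPM and 615, 544 and 599 TPM, and Hk2 2.22, 2.89 and 2.86 TPM and 3.26, 3.32 and 3.14 TPM. Hk2 was lower in every SOD1 library by a small margin and was not called. In iLN 19 members had enough counts to be tested. Pfkp read 270, 160 and 135 CPM in SOD1 and 77.2, 32.6 and 92.8 CPM in WT, with no overlap and no call (1.35 ± 0.42, edgeR adjusted p = 0.97).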

How the data were processed

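The authors deposited raw counts per gene for the sorted cells, the cultures and iLN, and a whole thymus table whose values have the same sum in each library and were used as TPM. Libraries were made with the SMARTseq v4 low input kit, per the labels' protocols, and mm10 and DESeq2 come from the submitters' processing notes. The aligner, counting tool and strand setting were not given in the sources used here. Columns were matched to samples through the labels, whose descriptions name them. Column names of the WT d30 libraries begin with SOD1, and the labels were followed. Counts were filtered (filterByExpr, minimum count 10), scaled by TMM and tested with edgeR's quasi-likelihood test, with a dispersion per gene (edgeR 4.0.16, R 4.3.3). Standard errors for edgeR were the absolute log2 fold change divided by the square root of the F statistic, which is unreliable near a change of 0. Whole thymus was tested with limma 3.58.1 on log2(TPM + 1), leaving out genes whose mean was under 1 TPM, which understates changes of low genes. P-values were adjusted by the Benjamini-Hochberg method over all genes tested, at a threshold of 0.05. Isozyme ratios were log2 ratios of counts with 0.5 added, tested by an exact two-sided permutation. Exon lengths came from GENCODE vM21, which holds 55094 of the 55487 gene IDs, and near-identical copies were found with BLAST+ 2.17.0. The scripts were tested on simulated counts with 200 changed genes, 100 by 2-fold and 100 by 4-fold. For T20 against T0 edgeR recovered 22 and 78 of them. For genotype in Treg cells of d120 it recovered 21 and 61, and for mTEC against cTEC at d120 0 and 6. A member without a call may therefore still differ. In order of adjusted p, up to 12 passing members per direction were named, with Slc2a1, Slc2a3, Hk1, Hk2, Pfkfb3, Pfkp, Ldha, Pdk1 and G6pdx named whatever their p. Further members are named after their values were seen, to account for each step of the pathway, and of other lists up to 4 genes were named by p. The members and the gene lists were chosen with earlier results of these data known. Alternatives were DESeq2 1.42.0, limma voom with quality weights, median-of-ratios scaling, no filter, a shared dispersion and added copies. Others were a replicate block, no low-depth libraries and each library left out. A last one was a covariate that split the sorted d120 libraries into low and high running numbers of their column names. The labels do not say what these numbers mark.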

Additional observations from a re-analysis of the deposited data

Results flagged for a closer look

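The difference in Pkm between Treg and CD4 cells itself differed between the days, by 1.05 ± 0.24 on the log2 scale (edgeR adjusted p = 0.041), so it was taken up for a closer look. All 6 Treg libraries of d30 lay below the 5 CD4 libraries, and at d120 most lay above them. The call was lost with a replicate block (adjusted p = 0.11), with median-of-ratios scaling (adjusted p = 0.054) and in 15 of 23 fits without 1 library (adjusted p = 0.051 to 0.11). The summed proliferation markers in CD4 cells went from 969 to 1162 CPM at d30 to 281 to 407 CPM at d120, and their part in the difference was not tested.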

How the results depend on the processing

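No result changed direction under any alternative. Without 1 library each, the members called ranged from 22 to 27 at T2, 25 to 27 at T20, 19 to 23 for epithelial against T cells, 4 to 6 for mTEC against cTEC at d120, 7 to 11 for Treg against CD4 cells at d120 and 0 to 2 at d30, 9 to 18 for Treg between days, 2 to 11 for CD4, 0 to 6 for cTEC and 0 to 3 for mTEC. The differences between days ranged from 0 to 2 (epithelium) and 0 to 3 (T cells), and the genotype counts stayed at 0. For mTEC against cTEC at d30, 0 became 4 with DESeq2, 4 with a shared dispersion, 20 with voom, 1 with median-of-ratios scaling, 3 without a filter and 7 without low-depth libraries, and at d120 4 became 7 with DESeq2. The epithelial difference between days went from 0 to 3 with DESeq2, 1 with a shared dispersion, 1 with voom and 2 without a filter. For Treg against CD4 cells at d30, 2 became 5 with DESeq2, 6 with a shared dispersion, 17 with voom and 4 without a filter. The T cell difference between days went from 1 to 3, 2, 2 and 3 in the same order, and to 0 with median-of-ratios scaling. It went to 4 with the covariate for d120 column names with a running number above 3, which no label describes as a batch. That covariate left 1 of 5 calls in cTEC between days, and a shared dispersion gave 5 for 2 in mTEC. Between genotypes 1 member was called in cTEC of d120 without a filter, and 1 in Treg of d120 with DESeq2 and without a filter.

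The main fits did not pair the libraries by replicate number, since the labels do not say what the numbers mark. In the cultures, libraries of the same genotype and replicate number have consecutive running numbers in their column names across T0, T2 and T20. Correlations were taken after removal of the group means. Same-numbered libraries correlated by 0.0169 to 0.329 in the cultures, -0.0683 to 0.0814 in the epithelium and 0.0632 to 0.254 in T cells. Libraries of different number correlated by -0.33 to 0.057, -0.0899 to 0.0899 and -0.216 to 0.0421. Libraries correlated best with their own number in 32 of 36, 15 of 22 and 22 of 22 cases. In T cells every same-numbered pair lay above every other pair compared, and in the cultures every same-numbered pair was positive. The main fits may leave out a pairing in both. Removing a group's mean makes the correlations of its libraries with any other library offset each other, so part of this gap is built in. The running numbers in the column names of WT d30 place cTEC replicates 2 and 3 next to mTEC replicates 3 and 1. The epithelial block there may thus join other libraries. The correlations (0.0683 and 0.0899, against 0.0115 and -0.0683 for the same number) cannot decide this. With 2 WT cTEC libraries, removal of the mean makes each the other with its sign reversed, so 0.0683 and -0.0683 are 1 value. With a replicate block the calls went from 5 to 2 in cTEC and from 2 to 1 in mTEC between days, and from 1 to 0 for the T cell difference between days. In iLN 19 members had enough counts to be tested.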
